A study of Saccharomyces cerevisiae with 2 samples.

Results

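The yeast strains described here each lack a subunit of SAGA, a coactivator of RNA polymerase II that modifies histones. They were 10 of the 5325 deletion strains measured, taken by name and divided into 3 modules: acetylation (ADA2, GCN5 and SGF29), deubiquitination (SGF73, SGF11 and UBP8) and core (SPT7, SPT20, SPT3 and SPT8). All 10 had both tags on both arrays. In the study, 2 haploid pools of Saccharomyces cerevisiae deletion strains were compared on each of 2 two-colour tag arrays, called array 1 and array 2. Cells of the LCD1 pool carried a GAL1-LCD1 plasmid, so that galactose switched on LCD1, also named DDC2, whose product works as the binding partner of Mec1, the checkpoint kinase. Cells of the control pool carried a control plasmid. Both pools came from the same collection of 5896 heterozygous diploid knockouts, both plasmids were selected by URA3, and both pools grew for 3 days at 30 °C under selection for haploids, with galactose (2%) the sugar supplied. Going by its title, the study looked for gene deletions that cells with excess LCD1 cannot tolerate. The titles of the 2 arrays call them experiments 1 and 2. Whether each array had its own cultures is not in the labels, so the spread between arrays may be technical.

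SAGA is built of parts with separate activities. Gcn5 acetylates histone H3, Ada2 is needed for its activity on nucleosomes, and Sgf29 binds methylated lysine 4 of histone H3 through a tandem Tudor domain. Ubp8 removes ubiquitin from histone H2B, Sgf11 activates it, and Sgf73 anchors it to the complex. Spt7 and Spt20 hold the complex together, and Spt3 and Spt8 contact the TATA-binding protein. SAGA is recruited by the activator Gal4 to the GAL1 promoter, the promoter that drove LCD1 here, in cells that used galactose for growth. The amount of LCD1 made in any strain was not measured, so the tag ratios do not separate a change in growth with LCD1 from a change in LCD1 itself.

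A strain carries a pair of DNA tags, and its value is the log2 ratio of tag signal in the LCD1 pool over the control pool, set to a median of 0 over all strains for each tag on each array. A value below 0 thus means fewer cells of that strain in the LCD1 pool relative to the other strains. This direction is the likely one and is not stated in the sources used here. It rests on the dyes in the labels (Cy5 for the control pool, Cy3 for the LCD1 pool) with the scanner program's usual order of Cy5 over Cy3, and on the LCD1 deletion, an essential-gene deletion that should grow only with the LCD1 plasmid and had the highest mean of all strains (2.63 ± 0.0086, SD, n = 2; 4.24 and 4.97 on the first tag, 1.01 and 0.30 on the second). Dye and pool were confounded on both arrays. With the sign turned, each strain called lower would be higher and the reverse.

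The 10 SAGA strains shared no common direction. The strain without SGF29 was the 1 strain at least 2-fold lower in the LCD1 pool on both arrays, where 1.82% of all strains passed that rule, and 0 of 10 were at least 2-fold higher on both, where 0.695% of all strains were. The lowest and the highest SAGA strains, those without SGF29 and ADA2, belong to the same module. Means over the arrays were above 0 for 7 strains and below 0 for 3, against 54.1% of all strains above 0, and the median of the 10 means was 0.25, against 0.04 over all strains. On the single arrays 5 strains were above 0 on both, 2 were below 0 on both and 3 changed sign, while 71.7% of all strains kept 1 sign. By limma with Benjamini-Hochberg adjustment over all 5325 strains, 0 of the 10 passed an adjusted p of 0.05, as did 0% of all strains, and the adjusted p of the 10 lay between 0.113 and 0.679. At an unadjusted limma p under 0.05, 2 SAGA strains were lower (SGF29 and SGF11), where 10.8% of all strains were, and 2 were higher (ADA2 and SPT8), where 11.6% were. With 2 arrays an exact two-sided permutation of signs cannot give a p below 0.5.

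**Figure D1:**
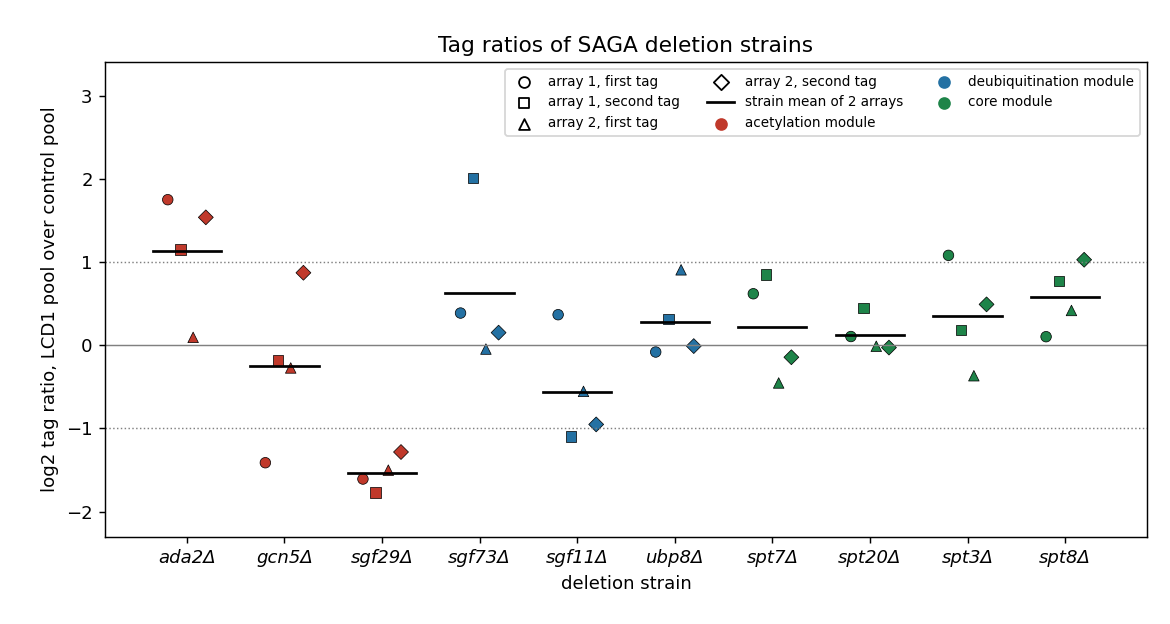
Log2 tag ratio, LCD1 pool over control pool, of the 10 SAGA deletion strains, with a symbol for each tag on each array, colour for the module, a bar for the strain mean of 2 arrays and dotted lines at 2-fold. The 4 values of the SGF29 deletion lie between -1.77 and -1.28, below all tag values of the other SAGA strains except 1 of GCN5 (-1.41), while the values of the GCN5 deletion spread from -1.41 to 0.87.

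In the acetylation module, the strain without SGF29 (YCL010C) read -1.61 on the first tag and -1.77 on the second tag of array 1, and -1.501 and -1.28 on array 2. All 4 values were below -1, and the tags of an array lay 0.16 and 0.22 apart, against median gaps of 0.38 and 0.34 over all strains. The 2 tags agreed poorly over the series, with a Pearson r of 0.09 on array 1 and 0.14 on array 2. Between arrays r was 0.55. The mean of the SGF29 strain was -1.54 ± 0.21 (SD, n = 2), a 2.91-fold lower ratio, with a limma 95% interval of -1.97 to -1.11. It ranked 60 from the lowest of 5325 strains. Of the strains with both tags on both arrays, 16.4% were below 0 on all 4 tag values and 0.377% were at least 2-fold lower on all 4, as this strain was. Its limma p was 0.000968, unadjusted, and its adjusted p 0.113. A limma fit of the 4 tag values as if they were independent called it (adjusted p 0.0368), as it did 0.452% of strains. With the array as a random block the adjusted limma p was 0.0129 (consensus correlation -0.363), in a fit that called 483 of 5309 strains. With the tag as a random block the adjusted limma p was 0.0659 (0.214), in a fit that called 1 of 5309. The call thus depended on how the tag values were treated.

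The strain without ADA2 (YDR448W) stood at the opposite end. Its tags read 1.75 and 1.15 on array 1 and 0.10 and 1.54 on array 2, above 0 on all 4, as in 16.8% of strains. The mean was 1.13 ± 0.45 (SD, n = 2), a 2.19-fold higher ratio with a limma 95% interval of 0.51 to 1.76, and it ranked 74 from the highest. Array 2 alone kept it from the 2-fold rule, with a value of 0.82 against 1.45 on array 1, and its first tag read close to 0 there. At 1.5-fold on both arrays it was the 1 SAGA strain higher, where 3.87% of all strains were, and SGF29 the 1 lower, where 4.34% were. By limma the unadjusted p was 0.00875 and the adjusted p 0.139. ADA2 stood 3.14 above SGF29 on array 1 and 2.21 above it on array 2, although the products of both genes sit in the module with Gcn5.

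The strain without the acetyltransferase gene GCN5 (YGR252W) lay between them and changed sign between the arrays. Its value was -0.80 on array 1 and 0.30 on array 2, a gap wider than that of 94.6% of all strains (median gap 0.22). The tags read -1.41 and -0.19 on array 1 and -0.27 and 0.87 on array 2, so both moved upward on array 2, by 1.14 and 1.06. Each of its tags was printed as 6 spots, and the spots repeated closely. The first tag spanned -1.51 to -1.28 on array 1 and -0.34 to -0.13 on array 2, with spot SDs of 0.08 and 0.07. The second tag spanned -0.30 to -0.11 and 0.76 to 1.10. The spots of the arrays did not overlap on either tag, so the gap between arrays was larger than the spread between spots. The mean of -0.25 ± 0.78 (SD, n = 2; limma 95% interval -1.20 to 0.70, adjusted p 0.652) covers both directions and gives none.

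**Figure D2:**
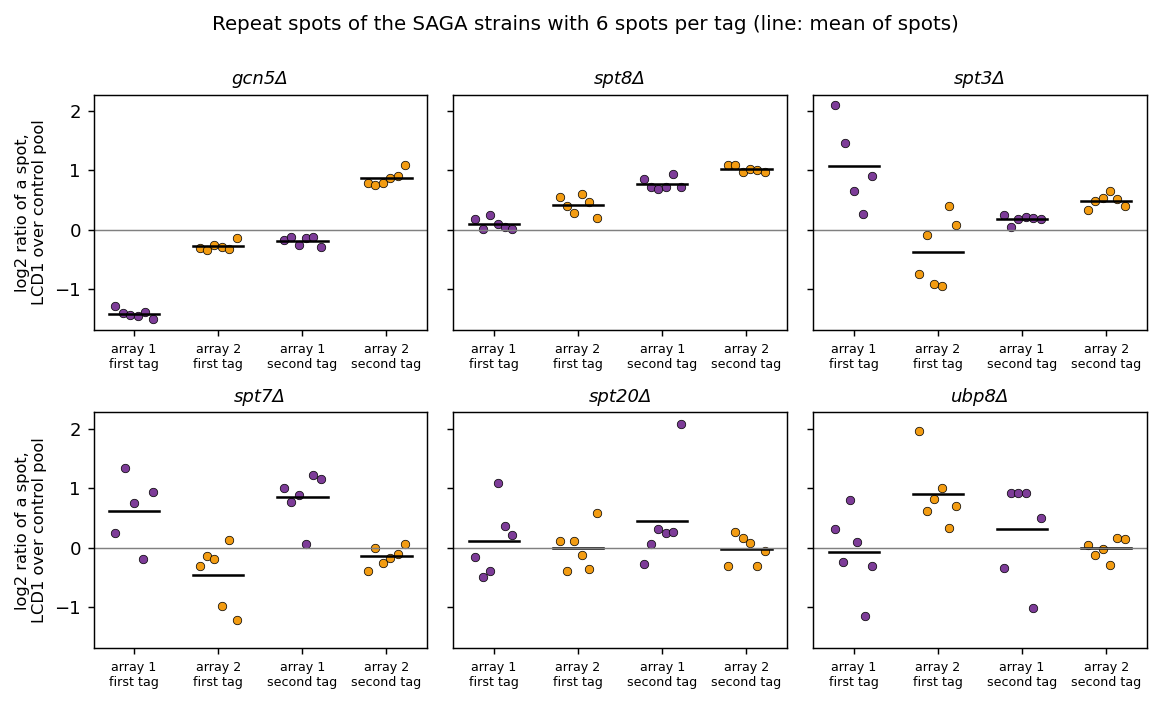
Log2 ratio of each spot, LCD1 pool over control pool, for the 6 SAGA strains with 6 spots per tag (purple, array 1; orange, array 2), with a line at the mean of the spots. GCN5 and SPT8 spots lie close together and GCN5 differs between arrays on both tags, whereas the spots of SPT7, SPT20 and UBP8 on array 1, and those of their first tags and the first tag of SPT3 on both arrays, scatter more widely.

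The deubiquitination module gave no common direction. The strain without SGF11 (YPL047W) was lower on both arrays, at -0.37 on array 1 and -0.75 on array 2, with a mean of -0.56 ± 0.27 (SD, n = 2; limma 95% interval -1.03 to -0.08). On arrays 1 and 2 the second tag gave -1.10 and -0.95 and the first gave 0.37 and -0.55, so the second tag carried the value. Its limma p was 0.032 unadjusted and 0.192 adjusted.

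The strain without SGF73 (YGL066W), which lacks the anchor of the module, stood at 1.20 on array 1 and 0.05 on array 2 (mean 0.63 ± 0.81, SD, n = 2). The second tag on array 1, at 2.01, set it apart, and the other tag values were 0.39, -0.05 and 0.15. The gap between arrays was wider than in 95.2% of all strains. The strain without the ubiquitin protease gene UBP8 (YMR223W) stood at 0.12 on array 1 and 0.45 on array 2 (mean 0.28 ± 0.23, SD, n = 2). Its 6 spots scattered widely: those of the first tag on array 1 spanned -1.16 to 0.80, with an SD of 0.66, larger than that of 93.6% of the 793 strains with at least 5 spots there. Adjusted limma p values were 0.34 for SGF73 and 0.341 for UBP8.

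All 4 core strains had means above 0, as did 54.1% of all strains, and the largest belonged to SPT8. That strain (YLR055C) read 0.10 and 0.77 on the tags of array 1 and 0.42 and 1.03 on those of array 2, above 0 on all 4. The second tag was the higher one on both arrays. The mean was 0.58 ± 0.20 (SD, n = 2), a 1.496-fold higher ratio, with a limma 95% interval of 0.16 to 1.01, an unadjusted p of 0.0209 and an adjusted p of 0.173. Its spots repeated closely, with SDs of 0.06 to 0.16, and all of them were above 0.

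The strain without SPT3 (YDR392W), whose product also contacts the TATA-binding protein, stood at 0.63 on array 1 and 0.06 on array 2 (mean 0.35 ± 0.40, SD, n = 2). Its second tag was above 0 on both arrays, at 0.18 and 0.49, with spot SDs of 0.07 and 0.11. Its first tag gave 1.08 on array 1 but -0.37 on array 2, and the spots behind these values scattered with SDs of 0.72 and 0.57. The closely repeating tag thus showed a smaller difference than the scattered one on array 1 and none of the change of sign.

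The scaffold strains stood near the middle of all strains. The strain without SPT7 (YBR081C) stood at 0.74 on array 1 and -0.30 on array 2 (mean 0.22 ± 0.73, SD, n = 2). Both of its tags were lower on array 2, by 1.07 and 0.99 on the log2 scale, the opposite of the shift in the GCN5 strain. The strain without SPT20 (YOL148C) stood at 0.28 and -0.02 (mean 0.13 ± 0.21, SD, n = 2), the value closest to 0 of the 10. Adjusted limma p values were 0.679 for SPT7, 0.605 for SPT20 and 0.36 for SPT3, and the 95% intervals for the scaffold strains, -0.69 to 1.12 and -0.30 to 0.56, leave room for a change in either direction.

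**Figure D3:**
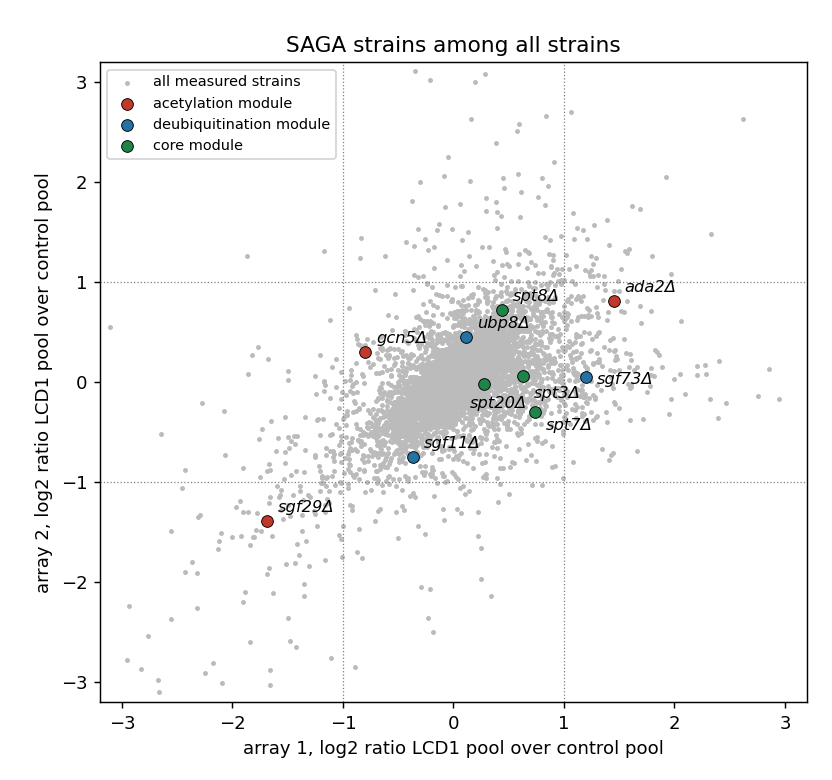
Strain values on array 1 (x) and array 2 (y), as log2 ratio of LCD1 to control pool, for all measured strains (grey; 6 strains lie outside the range drawn) and the SAGA strains by module, with dotted lines at 2-fold. SGF29 lies in the lower left corner past both lines, ADA2 passes the line of array 1 only, and GCN5 and SPT7 lie on opposite sides of 0 on the 2 arrays.

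From lowest to highest mean, the order of the strains was SGF29, SGF11, GCN5, SPT20, SPT7, UBP8, SPT3, SPT8, SGF73 and ADA2. SGF29 lay lower than the next strain, SGF11, by more than the SD of either, and its strain value on each array was below those of the other 9 strains. From SGF11 to ADA2, each neighbour in the order lay within 1 SD of the other, taking the larger SD of the pair. The strains that lay farthest out, SGF29 and ADA2, had 1 spot per tag, as did SGF73 and SGF11, so spot scatter is unknown for these 4. Of the 4439 strains with 1 spot per tag, 1.94% were 2-fold lower and 0.541% were 2-fold higher on both arrays. Of the 793 strains with at least 5 spots per tag, 1.26% were lower and 1.64% were higher.

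The modules were compared through their medians, which are medians of 3, 3 and 4 strains and carry no test. On array 1 the median was -0.80 for acetylation, 0.12 for deubiquitination and 0.53 for core. On array 2 it was 0.30, 0.05 and 0.02. The acetylation median was the value of the GCN5 strain on both arrays. Acetylation minus core was -1.33 on array 1 and 0.28 on array 2 (mean -0.53 ± 1.14, SD, n = 2). Acetylation minus deubiquitination was -0.91 and 0.25 (mean -0.33 ± 0.82), and deubiquitination minus core was -0.42 and 0.03 (mean -0.19 ± 0.32). Each difference changed sign between the arrays, and each mean was smaller than its SD.

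The means of the acetylation strains spanned 2.67 on the log2 scale, those of the deubiquitination strains 1.19 and those of the core strains 0.45. On array 1 the strain values spanned 3.14, 1.57 and 0.46, and on array 2 they spanned 2.21, 1.20 and 1.02. The acetylation module was the widest on both arrays, while the core module was close to the deubiquitination module on array 2. These spans are a description of a few strains and carry no test. In the core module 8 of 8 tag values were above 0 on array 1 but 3 of 8 on array 2. In the acetylation module 2 of 6 and 3 of 6 were above 0, and in the deubiquitination module 4 of 6 and 2 of 6.

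Other subunits of the complex widened the picture. HFI1, also named ADA1, encodes a core scaffold subunit, and its strain stood at 0.77 on array 1 and 1.09 on array 2 (mean 0.93 ± 0.23, SD, n = 2; limma unadjusted p 0.0056, adjusted p 0.133), above 0 on all 4 tag values. Its mean lay above those of the 4 core strains given above. NGG1, also named ADA3, encodes a partner of Ada2 and Gcn5, and its strain stood at 0.40 ± 0.04 (0.43 and 0.37; limma adjusted p 0.203), with 1 tag value of 4 below 0. The strains without CHD1, which encodes a chromatin remodeller reported with SAGA, and RTG2, a subunit of the SAGA-like complex SLIK, stood at -0.24 ± 0.61 and 0.02 ± 0.07. Of these 4 strains 0 passed limma over all strains, as did 0% of all strains. By the 2-fold rule 0 passed, where 1.82% of all strains were lower and 0.695% higher. SUS1 of the same list is not analysed here.

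The separate ADA complex contains Gcn5, Ada2, Ngg1 and Sgf29 together with Ahc1 and Ahc2. The strain without AHC1 stood at -0.31 ± 0.03 (SD, n = 2), below 0 on all 4 tag values, and that without AHC2 at 0.59 ± 0.23, above 0 on all 4. Neither was 2-fold changed on both arrays, where 1.82% of all strains were lower and 0.695% higher. Their adjusted limma p values were 0.26 and 0.178. Of the strains with both tags on both arrays, 16.4% were below 0 on all 4 tag values and 16.8% were above 0 on all 4.

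Essential subunits gave a view of readings without growth, since haploids that lack them should grow in neither pool. Among the 5 measured, TAF9 stood at -1.004 ± 0.07, TAF5 at -0.81 ± 0.41, TAF10 at -0.62 ± 0.97, TAF6 at 0.06 ± 0.21 and TAF12 at 1.13 ± 1.51 (SD, n = 2 each). TRA1 is not analysed here. The mean of the ADA2 strain equalled the highest of these means, and that of the SGF29 strain lay below the lowest. These 5 strains do not give the full range of readings without growth. GAL10, another strain that should grow in neither pool, read lower than SGF29, at -2.09 on array 1 and -3.01 on array 2. TAF12 reached its mean through array 1 (2.20, against 0.07 on array 2), and TAF9 through its first tag (-2.79 and -1.88, against 0.89 and -0.24 on the second). Signal over background is unknown in these data, and its part in the SAGA values was not tested.

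**Figure D4:**
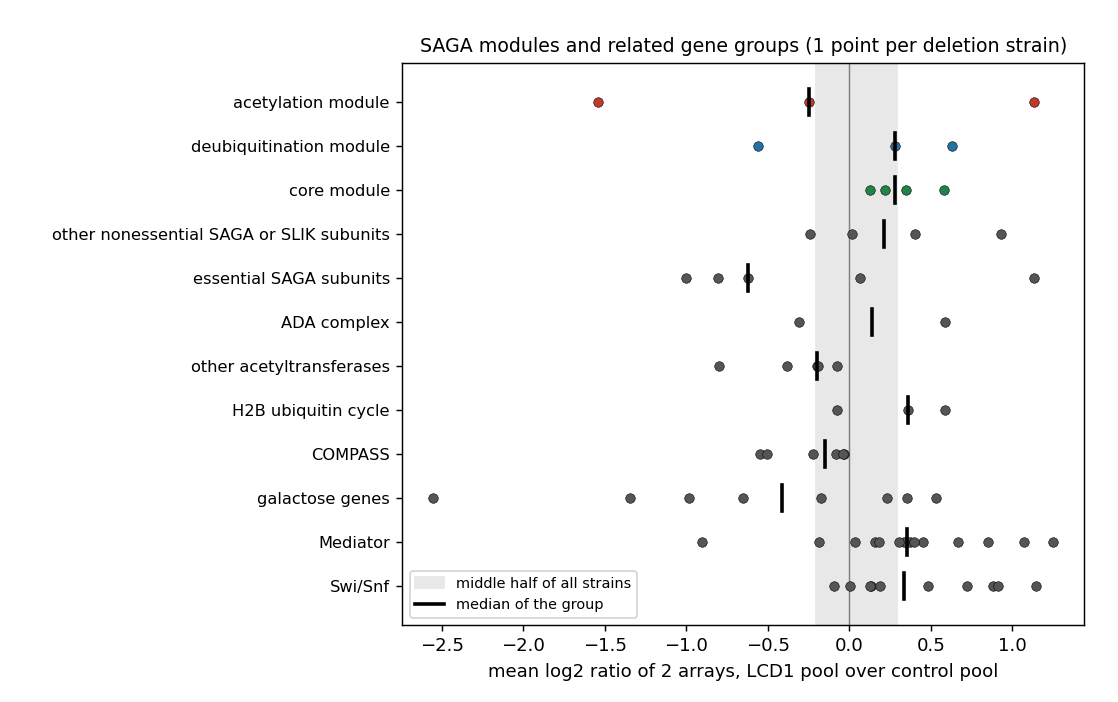
Mean log2 ratio of 2 arrays, LCD1 pool over control pool, with 1 point per deletion strain, for the SAGA modules and related gene groups; bars mark group medians and the grey band the middle 50% of all strains (-0.20 to 0.29). The acetylation module spans from -1.54 to 1.13, the core module lies between 0.13 and 0.58, and most Mediator and Swi/Snf strains lie above 0.

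Other histone-modifying enzymes were given by list, and none of their strains had a mean as low as that of SGF29, below which 1.11% of all strains lay. Sgf29 reads the methyl mark that the COMPASS complex writes. The 6 measured COMPASS strains had a median of -0.15, all with means below 0, against 54.1% of all strains above 0. They were led by SPP1 (-0.55 ± 0.14) and SHG1 (-0.51 ± 0.86), and the rest lay between -0.22 and -0.03. Most of the 6 changed sign between the arrays, among them SHG1 (0.10 on array 1, -1.12 on array 2). Of all strains, 71.7% kept 1 sign. Of the 6 COMPASS strains, 1 was lower at an unadjusted limma p under 0.05, SPP1, where 10.8% of all strains were. The H2B ubiquitin removed by Ubp8 is attached by Rad6 and Bre1 with Lge1, and the 3 measured strains had a median of 0.36, led by RAD6 (0.59 ± 0.52) and LGE1 (0.36 ± 0.27), with BRE1 the 1 below 0. The 5 strains without other acetyltransferases had a median of -0.20, all with means below 0, against the same 54.1% above 0. They were led by RTT109 (-0.80 ± 0.27), which acetylates free histone H3, and SAS3 (-0.38 ± 0.10). At an unadjusted limma p under 0.05, 2 of the 5 were lower, where 10.8% of all strains were. In these groups 0 strains were 2-fold lower or higher on both arrays, where 1.82% and 0.695% of all strains were. By limma's adjusted test 0 passed, as did 0% of all strains. SET1 and UBP10 are not analysed here.

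Mediator and Swi/Snf, other coactivators of RNA polymerase II, are given by the same counts, where 54.1% of all strains had means above 0. Of 14 Mediator strains 12 had means above 0, with a median of 0.35, and the farthest out were NUT1 (1.25 ± 0.01) and SRB2 (1.07 ± 1.10). Of 10 Swi/Snf strains 9 were above 0, with a median of 0.33, led by SWI1 (1.15 ± 0.31) and SWI3 (0.91 ± 0.10). By the 2-fold rule 1 Mediator strain, NUT1, and 0 Swi/Snf strains were higher, where 0.695% of all strains were, and 0 of either were lower, where 1.82% were. At an unadjusted limma p under 0.05, 5 Mediator and 4 Swi/Snf strains were higher, where 11.6% of all strains were, and 1 Mediator strain and 0 Swi/Snf strains were lower, where 10.8% were. Whether SAGA differs from these complexes was not tested.

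Galactose genes bear on the medium and on the promoter of the plasmid. Their 8 strains had a median of -0.41. At an unadjusted limma p under 0.05, 4 of them were lower and 0 higher, where 10.8% and 11.6% of all strains were. By limma's adjusted test 0 passed, as did 0% of all strains. On both arrays 2 were 2-fold lower, GAL10 (-2.55 ± 0.65) and GAL7 (-1.35 ± 0.03), where 1.82% of all strains were. Their products break down galactose, as does that of GAL1, whose strain stood at -0.17 ± 0.21 with tags of mixed sign, and these strains should grow in neither pool. The value of GAL10 came from its first tag (-4.88 and -5.35, against 0.69 and -0.67 on the second). Tags of 1 sign also occurred in strains that should not grow. GAL7 was below 0 on all 4 tag values (-2.71 and -0.02 on array 1, -2.28 and -0.37 on array 2). That held for 16.4% of the strains with both tags on both arrays. Of the 5 essential SAGA strains measured, only TAF5 was below 0 on all 4 tag values (-0.73 and -1.47 on array 1, -0.68 and -0.35 on array 2).

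Chromosomal neighbours of the SAGA genes were compared as well. The nearest gene with a strain on each side of the 10 genes, in the gene order of assembly R64, gave 20 strains. Their means lay between -0.43 and 1.05 with a median of 0.07, 10 above 0 and 10 below, against 54.1% of all strains above 0. On both arrays 0 of the 20 were 2-fold changed, where 1.82% of all strains were lower and 0.695% higher. The neighbours of SGF29 were GBP2, an mRNA-binding protein gene, at -0.06 ± 0.05, and ILV6, of branched-chain amino acid synthesis, at 0.59 ± 1.08 (-0.17 on array 1 and 1.36 on array 2). Beside ADA2, RPS17B stood at 1.05 ± 0.92 and UTP6 at 0.26 ± 0.23. RPS17B, a ribosomal protein gene, had a mean close to that of ADA2 and read 0.40 on array 1 and 1.70 on array 2. Both neighbours of SPT8, OSW2 (0.53 ± 0.20) and the ergosterol gene ERG3 (0.54 ± 0.0027), had means close to that of the SPT8 strain. The part of neighbouring genes in the SAGA values was not tested.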

How the data were processed

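Genomic tags of 2 pools were measured on 2 arrays. Per the labels' protocols, the authors labelled control-pool tags with Cy5 and LCD1-pool tags with Cy3 and read the arrays with GenePix 5.1. The deposited values are log2 ratios: on a linear scale, values of both arrays were whole hundredths within 0.001 (100.0% on each). How they were normalized and which dye is the numerator is not given in the sources used here, and the deposited median was -0.136 on each array. Without intensities, brightness over background is unknown and dim spots were not filtered. The lowest deposited ratio among the 80 SAGA spots was 0.21, where 0.01 is 4.76%.

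Of 20036 features with a value, the platform annotation named 18794 for 5325 genes, 1 gene each, and 1242 were unnamed. Symbols were updated through the R64 gene table, and 4 had no match. Signs were turned, spots averaged per gene within each tag block (features up to 10971, and above; called first and second tag), blocks centred on their medians, and tags averaged. Limma 3.58.1 in R 4.3.3 tested each strain against 0 (intercept, eBayes, two-sided, 1 residual and 2.42 prior degrees of freedom, tested on simulated data). The size rule asked for 2-fold on both arrays. SAGA genes, modules and lists were chosen with earlier results of these data known. All SAGA strains, LCD1, every measured strain of the other SAGA, essential SAGA and ADA lists, the 2 largest absolute means of each other list and the nearest neighbours are named. BRE1 and GAL1 are named beyond that rule, after their values were seen.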

Additional observations from a re-analysis of the deposited data

How the results depend on the processing

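The SGF29 strain was the 1 SAGA strain 2-fold lower without centring, with the first or the second tag alone, after scale normalization, with the median of spots, at 1.5-fold and on either array alone. With all 4 tag values below -1, SGF29 could not fail with a single tag, a single array or the 1.5-fold threshold. It had 1 spot per tag, so the median of spots could change its values only through the centring. The count of higher SAGA strains, 0, was 1 with the second tag alone and 1 at 1.5-fold. On array 1 alone ADA2 stood at 1.45 and SGF73 at 1.20, and on array 2 alone at 0.82 and 0.05. At 1.5-fold on both arrays, 4.34% of all strains were lower and 3.87% higher. For the other changed settings no share of all strains is given, so their lower and higher counts lack a background. Limma called 0 SAGA strains without centring, with either tag alone and after scaling. It called 1 (SGF29) when the 4 tag values were fitted as independent, where it called 0.452% of strains. With blocks chosen after seeing the data, it called 1 with the array as a random block (consensus correlation -0.363), where it called 483 of 5309 strains. With the tag as a random block (0.214) it called 0 SAGA strains and 1 of 5309 strains. Module differences were unstable. Deubiquitination minus core was 0.0744 with the first tag alone and ran from -0.42 on array 1 alone to 0.0317 on array 2 alone. Acetylation minus deubiquitination was 0.19 with the second tag alone and ran from -0.91 to 0.25. Acetylation minus core ran from -1.33 to 0.28. The mean of GCN5 was 0.34 with the second tag alone, and arrays 1 and 2 alone gave -0.80 and 0.30 for GCN5, 0.735 and -0.30 for SPT7 and 0.28 and -0.0196 for SPT20, each of opposite sign. The causes were not tested. No paired analysis was possible because there is 1 group of ratios. With 2 arrays, differences below the gap between arrays cannot be shown.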
